A study of Danio rerio with 12 samples.

Results

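Transcripts of 8 zebrafish genes that act when DNA is copied and packed for cell division are described here. They comprise the 6 helicase subunit genes *mcm2*, *mcm3*, *mcm4*, *mcm5*, *mcm6* and *mcm7*, the sliding clamp gene *pcna*, and the condensin subunit gene *ncapd2*. The genes were chosen by their function in proliferation and by their normalized values in mutant and wild-type larvae at 5 and 8 days post fertilization (dpf), which were already known, so the differences between the genotypes are given as a description with no test. All 8 could be mapped to an Ensembl identifier, of 31953 genes measured at 5 dpf and 20963 measured at 8 dpf. Their values ran from 391 to 4313 at 5 dpf and from 459 to 9825 at 8 dpf, and all 8 passed the filter on low values.

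The libraries came from *mia40a* mutants, in which a small deletion shifts the reading frame of a zebrafish gene for Mia40 (CHCHD4), the protein that imports and oxidizes cysteine-rich proteins in the mitochondrial intermembrane space. Homozygous mia40awaw1/waw1 larvae (Mut) were compared with their wild-type siblings (WT), all of the AB background and obtained by crossing heterozygous fish. Each library was made from the RNA of a pool of 5 whole larvae, with 3 pools per genotype at each age, or 12 libraries in all. The larvae of 8 dpf, Mut and WT alike, had received food from 5 dpf, so age and feeding cannot be told apart. The authors name starvation as a possible bias in gene expression of the Mut larvae of 8 dpf. Its part in the values given here was not tested. The transcript of *mia40a* (ENSDARG00000033376), which a frameshift need not remove, was at 82 to 92 in WT and 261 to 264 in Mut at 5 dpf and at 394 to 488 and 383 to 443 at 8 dpf.

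The normalized values of a library summed to between 16997847 and 18177809 at 5 dpf and to between 22595423 and 25417541 at 8 dpf. These sums follow the authors' scaling and are not read depths, and the ages were normalized separately, so genotypes were compared only within an age. The median log2 fold change of Mut over WT over all tested genes was -0.0012 at 5 dpf and 0.01 at 8 dpf. In the 8 dpf values a batch effect had been removed, and the deposited values show that Mut pool 3 and WT pool 3 formed the smaller of the 2 batches. Markers of 8 tissues or cell types were read as a check of what the pools held, and genes of all 8 lists were detected. The summed values of exocrine pancreas were lower in Mut at 5 dpf, at 46272 to 57147 against 92180 to 129981 in WT. At 8 dpf the summed markers of liver were at 45890 to 61383 in Mut against 71664 to 115719 in WT. Those of skeletal muscle were at 1319757 to 1468231 in Mut against 907397 to 1318731 in WT, so the lowest Mut pool barely exceeded the highest WT pool. At an adjusted p under 0.05 (limma), 2 of 10 liver markers were lower in Mut at 8 dpf and 0 of 7 muscle markers differed. The pools of the genotypes overlapped in the summed markers of erythrocytes and intestine at both ages, of liver and muscle at 5 dpf and of exocrine pancreas at 8 dpf. The part of these tissues in the values of the 8 genes was not tested.

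In replicating cells the products of *mcm2* to *mcm7* form a ring-shaped complex that is loaded onto origins before S phase and later unwinds the DNA ahead of the fork. PCNA is a ring that slides along the DNA behind the fork and holds the polymerases and other enzymes in place, and NCAPD2 is a subunit of condensin, which compacts chromosomes for mitosis. Transcripts of such genes are abundant in tissues with many dividing cells and scarce where cells have left the cycle. In a zebrafish larva, cells continue to divide in the margin of the retina, the brain, the gut, the blood-forming tissues and elsewhere.

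At 5 dpf the 8 genes stood on average higher in Mut than in WT, and at 8 dpf all of them stood lower in Mut. The median log2 fold change over the 8 genes was 0.23 at 5 dpf and -0.42 at 8 dpf. Because whole larvae were pooled, fewer cells of a type and less RNA per cell cannot be told apart for any of these values. At 5 dpf, 5 of the 8 genes were higher in every Mut pool than in every WT pool, where 12.9% of all tested genes were. At 8 dpf, all 8 were lower in every Mut pool than in every WT pool, where 17.3% of all tested genes were.

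**Figure D1:**
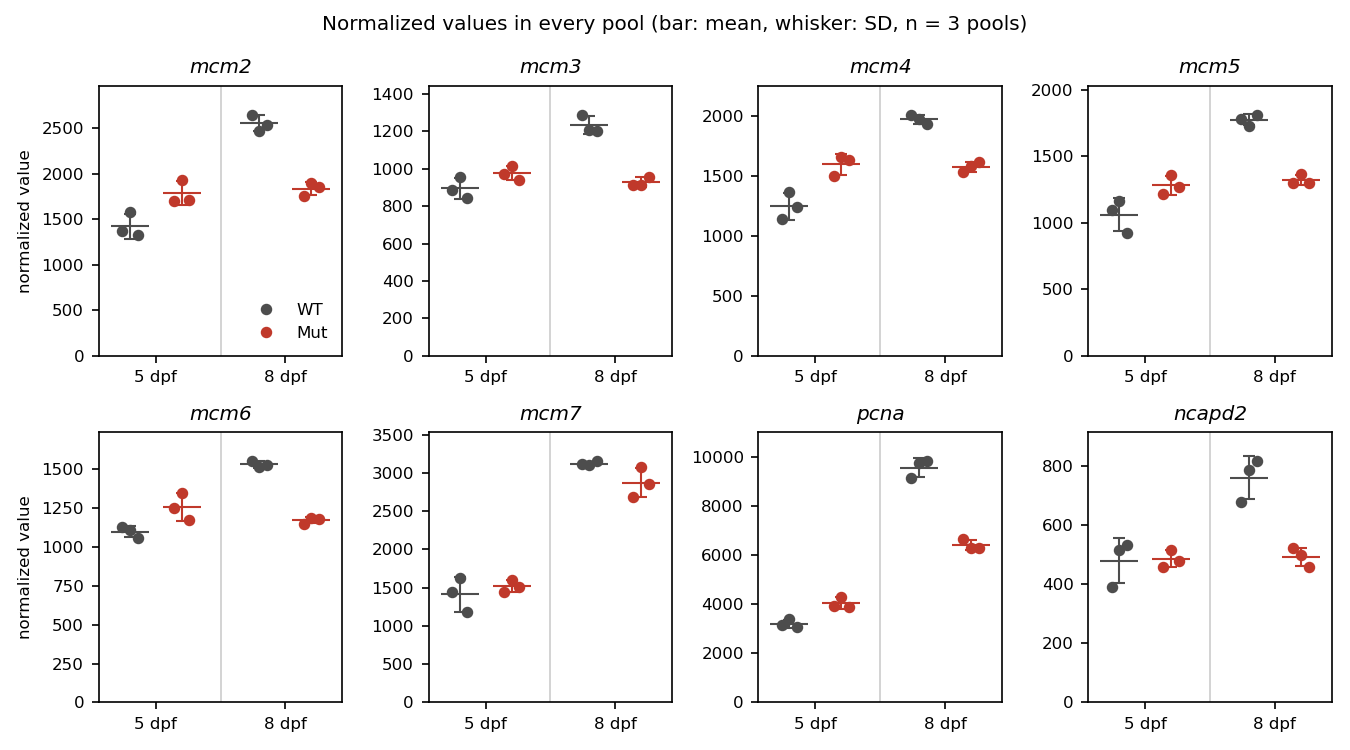
Normalized values (vertical axis, starting at 0, a scale per gene) of the 8 genes in each pool, by age and genotype. Points are single pools, horizontal bars are group means and whiskers are SDs (n = 3). For *pcna* the Mut points lie above the WT points at 5 dpf and below them at 8 dpf, while *mcm7* has overlapping groups at 5 dpf and a small gap at 8 dpf.

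*mcm2* (ENSDARG00000102798) encodes a subunit of the helicase ring whose tail also binds histones. At 5 dpf its normalized values were 1366, 1578 and 1326 for WT against 1702, 1934 and 1715 for Mut. The groups did not overlap, and the log2 fold change was 0.33 (SE 0.09, 3 against 3 pools). At 8 dpf the values were 2644, 2470 and 2537 for WT against 1757, 1894 and 1852 for Mut, a log2 fold change of -0.48 (SE 0.07). All 3 Mut pools of 8 dpf were thus below the lowest WT pool of that age.

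*mcm4* (ENSDARG00000040041) and *mcm5* (ENSDARG00000019507) were both higher in each Mut pool at 5 dpf. The values of *mcm4*, whose product belongs to the catalytic core of the helicase, were 1140, 1366 and 1238 for WT against 1498, 1661 and 1635 for Mut at 5 dpf, a log2 fold change of 0.36 (SE 0.08). At 8 dpf they were 2009, 1975 and 1934 for WT against 1531, 1583 and 1616 for Mut, a log2 fold change of -0.32 (SE 0.06). *mcm4* combined the highest log2 fold change of the 8 genes at 5 dpf with a difference at 8 dpf that was smaller than that of all others but *mcm7*. The values of *mcm5*, part of the gate through which the ring closes around DNA, were 1100, 1164 and 923 for WT against 1219, 1362 and 1267 for Mut at 5 dpf. At 8 dpf they were 1780, 1730 and 1812 for WT against 1298, 1368 and 1300 for Mut. The log2 fold changes of *mcm5* were 0.28 (SE 0.09) and -0.42 (SE 0.06), with the groups apart at either age.

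*mcm6* (ENSDARG00000057683), also of the catalytic core, had values of 1127, 1110 and 1058 for WT against 1251, 1347 and 1171 for Mut at 5 dpf. At 8 dpf its values were 1550, 1511 and 1530 for WT against 1150, 1189 and 1178 for Mut. The groups were apart at both ages, with log2 fold changes of 0.19 (SE 0.07) and -0.38 (SE 0.06). A second identifier that carries the symbol *mcm6*, ENSDARG00000033231, was read at only 4 to 17 at 5 dpf and 5 to 13 at 8 dpf and was not used.

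*mcm3* (ENSDARG00000024204), which encodes the neighbour of *mcm5* and *mcm7* in the ring, had values of 884, 956 and 843 for WT against 971, 1015 and 941 for Mut at 5 dpf. The highest WT pool was above the lowest Mut pool, and the log2 fold change was 0.13 (SE 0.07). At 8 dpf the values were 1287, 1208 and 1199 for WT against 915, 913 and 958 for Mut, a log2 fold change of -0.41 (SE 0.07). The overlap of 5 dpf was gone at 8 dpf, where the Mut pools all lay below the WT pools.

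*mcm7* (ENSDARG00000101180), of the catalytic core, differed least between the genotypes at 8 dpf among the 8 genes. Its values were 1438, 1633 and 1178 for WT against 1448, 1601 and 1512 for Mut at 5 dpf, with the Mut pools inside the WT range and a log2 fold change of 0.11 (SE 0.11). At 8 dpf they were 3112, 3103 and 3152 for WT against 2691, 3075 and 2859 for Mut, a log2 fold change of -0.12 (SE 0.07). Mut pool 2 nearly reached the WT pools, while the other Mut pools lay further below.

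*pcna* (ENSDARG00000054155) had values of 3136, 3382 and 3057 for WT against 3945, 4313 and 3879 for Mut at 5 dpf. At 8 dpf its values were 9153, 9750 and 9825 for WT against 6655, 6307 and 6278 for Mut. The groups did not overlap at either age and stood in opposite order, with log2 fold changes of 0.34 (SE 0.07) and -0.58 (SE 0.07). In fold terms, the Mut mean was 1.27 times the WT mean at 5 dpf and 0.67 times at 8 dpf.

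*ncapd2* (ENSDARG00000005058), the condensin gene, did not share the 5 dpf difference of *pcna*. Its values at that age were 391, 514 and 532 for WT against 459, 516 and 479 for Mut, a log2 fold change of 0.03 (SE 0.12), with all Mut pools inside the WT range. At 8 dpf they were 677, 786 and 814 for WT against 520, 497 and 459 for Mut, a log2 fold change of -0.62 (SE 0.10), the lowest of the 8 genes. The WT pools of *ncapd2* varied more than those of most of the 8 genes, with coefficients of variation of up to 16.0%.

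**Figure D2:**
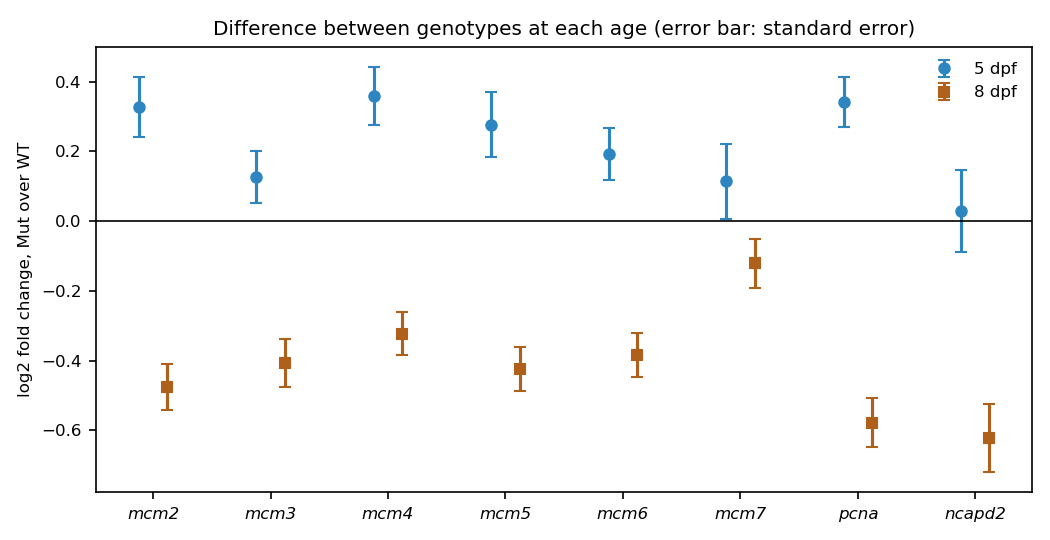
Log2 fold change of Mut over WT (vertical axis) for each of the 8 genes (horizontal axis) at 5 dpf (circles) and 8 dpf (squares), with standard errors from the linear model over 3 against 3 pools. The 5 dpf points lie between 0.03 (*ncapd2*) and 0.36 (*mcm4*), and the 8 dpf points between -0.62 (*ncapd2*) and -0.12 (*mcm7*).

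The change of the genotype difference from 5 to 8 dpf followed from these values. The log2 fold change at 8 dpf minus that at 5 dpf had a median of -0.67 over the 8 genes, against 0.02 over the 20598 genes tested at both ages. It was -0.92 (SE 0.10) for *pcna*, -0.80 (SE 0.11) for *mcm2* and -0.23 (SE 0.13) for *mcm7*, the ends and an inner value of the range. Scaled to values per 1000000 over the genes of both tables, *pcna* stood in WT at 184 ± 11.8 at 5 dpf and 401 ± 37.0 at 8 dpf, and in Mut at 230 ± 11.6 and 260 ± 12.97 (mean ± SD, n = 3). *mcm2* stood at 82.2 ± 8.77 and 107 ± 2.65 in WT, and at 101 ± 5.66 and 74.4 ± 1.58 in Mut. Thus these scaled values of WT were higher at 8 than at 5 dpf for both genes, while in Mut that of *pcna* was slightly higher and that of *mcm2* lower. Like *mcm2*, the genes *ncapd2*, *mcm4* and *mcm5* had a higher mean in WT and a lower mean in Mut at 8 dpf. Others did not share this. In WT, *mcm3* stood at 51.7 ± 3.74 and 51.5 ± 1.72 and *mcm6* at 63.4 ± 1.64 and 64.0 ± 2.95. In Mut, *mcm7* stood at 86.4 ± 2.14 and 117 ± 5.95. The separate normalization and the batch removal of the 8 dpf values lie between the ages.

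Single pools left their mark on the 5 dpf values. Mut pool 2 was the highest Mut pool for 8 of the 8 genes, and WT pool 3 was the lowest WT pool for 6 of them. Mut pool 2 also had the largest sum of normalized values, and after all libraries were scaled to the same total it was still the highest Mut pool for 7 of the 8. Leaving out Mut pool 2 lowered the median log2 fold change of the 8 genes from 0.23 to 0.19, and leaving out WT pool 3 lowered it to 0.17. Without WT pool 3 the log2 fold change of *mcm7* at 5 dpf was -0.01, while that of *ncapd2* was -0.11 without WT pool 1, -0.02 without Mut pool 2 and 0.11 without WT pool 3, so the direction of these 2 genes at 5 dpf changed with single pools. At 8 dpf no pool was the highest or lowest of its group for more than 5 of the 8 genes. Within the larger batch of 8 dpf (2 against 2 pools) the 8 log2 fold changes ran from -0.54 to -0.11, and between the pools of the smaller batch from -0.83 to -0.14, each with a median of -0.42.

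Within each pool the 6 helicase genes were also set against each other, a ratio that does not depend on how the libraries were scaled. At 8 dpf such ratios do depend on the batch removal, which was made gene by gene, and so do their SDs and overlaps. The summed values of the 6 genes at 5 dpf were 7055, 7807 and 6566 for WT against 8089, 8920 and 8241 for Mut. At 8 dpf the sums were 12382, 11997 and 12164 for WT against 9342, 10022 and 9763 for Mut. The Mut mean was therefore 1.18 times the WT mean at 5 dpf and 0.797 times at 8 dpf, with the pools apart at both ages. Gene lengths were not used here, so the share of a gene is compared only between the genotypes and not with the shares of other genes.

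At 8 dpf the share of *mcm7* in this sum was 25.1, 25.9 and 25.9% for WT against 28.8, 30.7 and 29.3% for Mut. All Mut pools were above all WT pools, by a mean of 3.95 percentage points. The share of *mcm2* was lower in Mut, at 18.9 ± 0.08% against 20.9 ± 0.39% in WT (mean ± SD, n = 3), and those of *mcm3*, *mcm5* and *mcm6* were lower in every Mut pool than in every WT pool, with mean differences of -0.94 to -0.48 points. The share of *mcm4* overlapped between the genotypes. At 5 dpf the mean share of *mcm7* was lower in Mut, at 18.1 ± 0.25% in Mut against 19.7 ± 1.59% in WT, with overlapping pools, while *mcm2* made up 21.2 ± 0.45% in Mut against 19.9 ± 0.49% in WT and *mcm3* 11.6 ± 0.35% against 12.5 ± 0.30%, each without overlap.

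**Figure D3:**
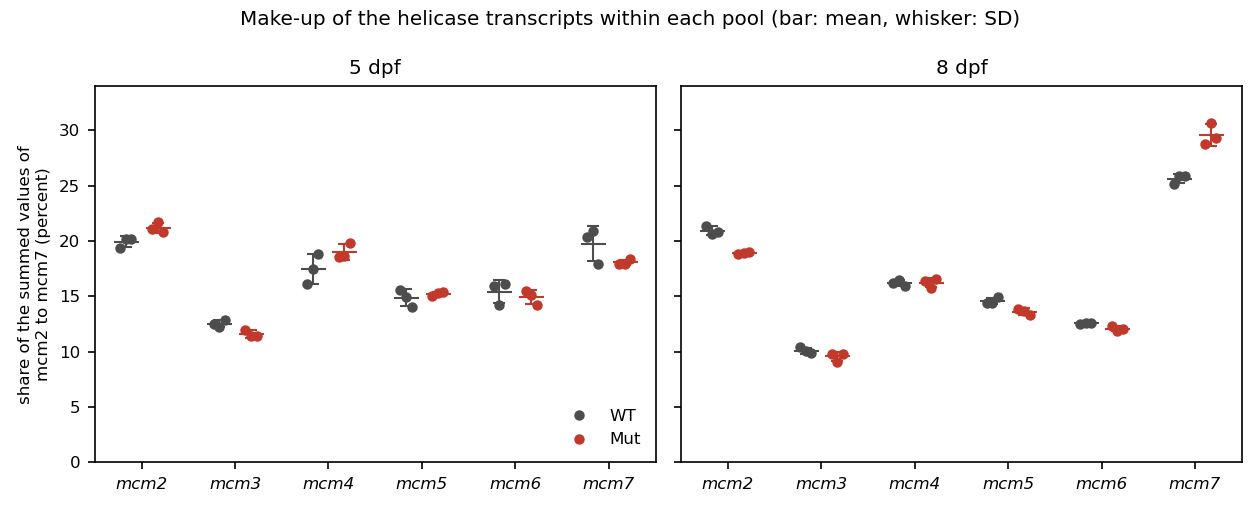
Share of each helicase gene in the summed normalized values of *mcm2* to *mcm7* within a pool (vertical axis, percent) at 5 dpf (left) and 8 dpf (right). Points are single pools, bars are means and whiskers are SDs (n = 3). The Mut pools of *mcm7* lie at 28.8 to 30.7% at 8 dpf, above the WT pools at 25.1 to 25.9%.

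Relative to the helicase sum of the same pool, *pcna* was at 0.445, 0.433 and 0.466 for WT against 0.488, 0.484 and 0.471 for Mut at 5 dpf. At 8 dpf this ratio was 0.739, 0.813 and 0.808 for WT against 0.712, 0.629 and 0.643 for Mut. The ratio of *pcna* was thus higher in every Mut pool at 5 dpf and lower in every Mut pool at 8 dpf, so that *pcna* differed by more than the helicase sum did at either age. The same ratio of *ncapd2* had overlapping groups at both ages, with means of 0.0674 in WT and 0.0576 in Mut at 5 dpf and 0.0624 and 0.0508 at 8 dpf.

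The 8 genes were next compared over all 12 libraries on log2 values centred within each age, in which the opposite differences of the genotypes at the 2 ages are shared by every point. As the 8 genes were chosen with these differences known, that choice favoured a high r among them. Such an r does not show that the genes vary together between pools of a genotype. The correlation (Pearson's r) of a gene with the mean of the other 7 was 0.98 for *mcm2*, 0.97 for *pcna*, between 0.89 and 0.95 for *mcm3* to *mcm6*, 0.72 for *ncapd2* and 0.60 for *mcm7*. Among 15477 genes with a mean of at least 50 at each age, 132 had an r over 0.9 with the mean of the 8 genes. The 10 most similar genes with a symbol had an r of 0.96 to 0.99. They included *nasp*, a histone chaperone, *ssrp1*, a subunit of the histone chaperone FACT, *orc6*, a subunit of the origin recognition complex, *hells*, a chromatin remodeller, and *cdca7*, its DNA-binding partner. They also included genes of other known roles, namely *cog4* of a Golgi tethering complex, *copb2* of the COPI coat, *snrpd1* of the spliceosome, the alpha-tubulin gene *tuba8l4*, and *tex261*. The gene with the highest r, 0.99, was *cog4*, with log2 fold changes of 0.22 at 5 dpf and -0.40 at 8 dpf.

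Other genes of the cell cycle were taken from 7 lists that hold none of the 8 genes, covering origin licensing and initiation, the replication fork, deoxynucleotide supply, maintenance of DNA methylation, condensin and cohesin, G1 and S regulators, and mitosis. The lists were chosen with earlier results of these data known. Their shares are thus no independent support for the pattern of the 8 genes. Of their 146 symbols, 130 were matched and 128 were tested at both ages. At 5 dpf, 93 of the 128 were higher and 35 lower in Mut on average, with a median log2 fold change of 0.08. Of these, 4 rose (adjusted p under 0.05, limma), where 3.82% of all tested genes rose, and 1 fell, where 2.17% fell. At 8 dpf, 118 of the 128 were lower and 10 higher, with a median of -0.41. Of these, 43 fell, or 33.6% of the lists against 3.32% of all tested genes, and 0 rose, against 1.34%. With a log2 fold change of at least 0.9 as well, 0 rose at 5 dpf, where 0.608% of all tested genes did, and 8 fell at 8 dpf, where 0.701% did. With limma at an unadjusted p under 0.05, 27 were higher and 4 lower at 5 dpf, and 0 were higher and 87 lower at 8 dpf. Over all tested genes these shares were 11.3% higher and 8.73% lower at 5 dpf and 8.77% higher and 12% lower at 8 dpf, so counts at an unadjusted p in the lists are to be read against them. Of the 128, 93 were lower in every Mut pool at 8 dpf, or 72.7% against 17.3% of all genes.

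**Figure D4:**
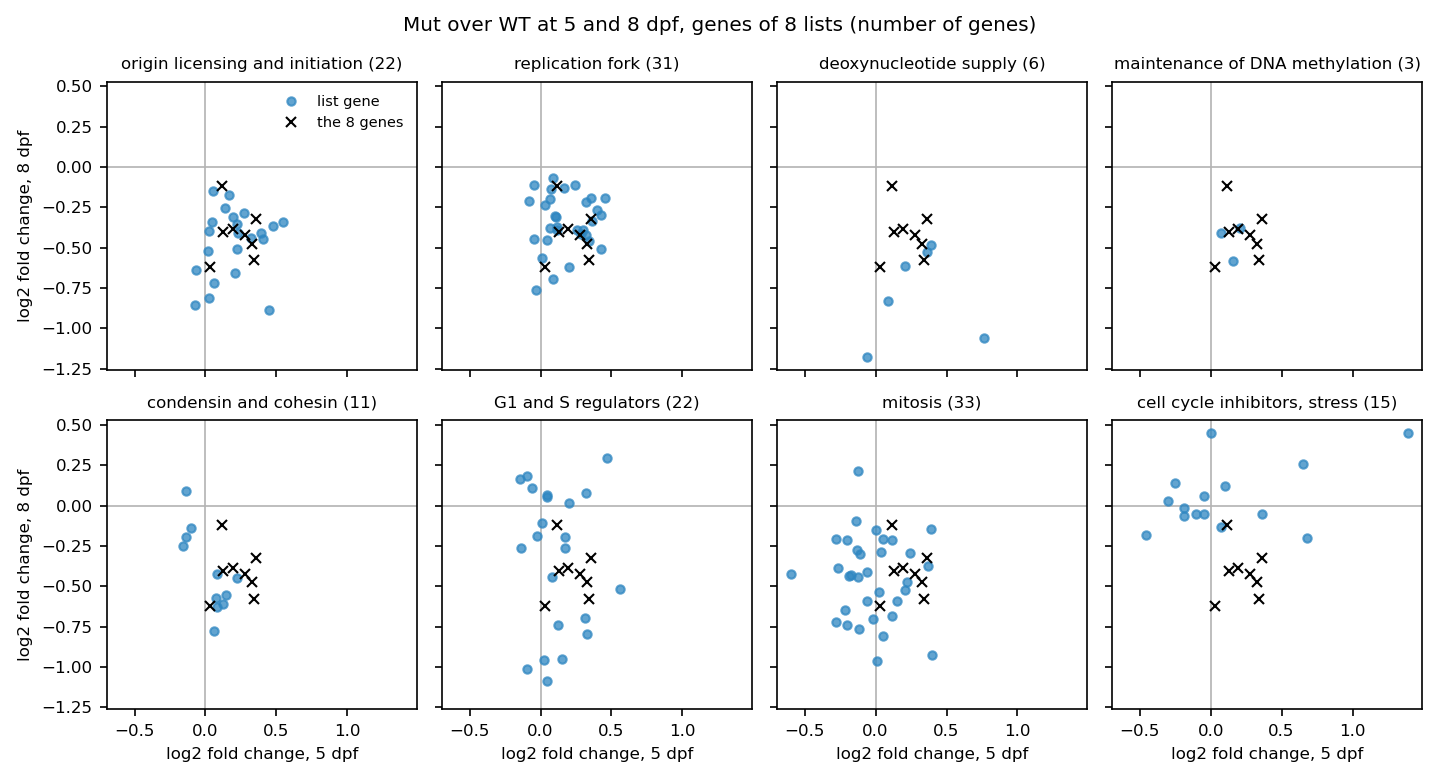
Log2 fold change of Mut over WT at 5 dpf (horizontal axis) and 8 dpf (vertical axis) for the genes of 8 lists (circles, a panel per list, number of genes in brackets) with the 8 genes repeated in each panel (crosses). All points of the licensing, fork, deoxynucleotide and DNA methylation lists lie below 0 at 8 dpf, and most lie to the right of 0 at 5 dpf, while the mitosis genes lie on both sides of 0 at 5 dpf.

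The counts of falls at 8 dpf moved with the model and the pools. The 43 became 40, 9 and 4 without WT pools 1, 2 and 3, and 2, 2 and 4 without Mut pools 1, 2 and 3, while 62 to 91 genes were lower at an unadjusted p under 0.05 in these fits. Without either pool 3 the batch term takes up the remaining pool of that batch, so both of these fits rest on the larger batch alone. Without the mean-variance trend 0 passed the adjusted threshold and 77 the unadjusted one. Of the 21 genes named below for their fall at 8 dpf, 17, 6 and 4 passed without WT pools 1, 2 and 3, and 2, 2 and 4 without Mut pools 1, 2 and 3. At 5 dpf the 4 rises became 0 without Mut pool 2, 1 without WT pool 1, WT pool 3 or Mut pool 3, and 3 without WT pool 2 or Mut pool 1.

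Licensing and initiation genes load and fire the helicase. Of 22 tested, 1 rose at 5 dpf and 7 fell at 8 dpf, with medians of 0.20 and -0.41. These were 4.55% and 31.8% of the list, so the share at 5 dpf was near that of all tested genes. For this list and those below, 3.82% of all tested genes rose and 2.17% fell at 5 dpf, and 3.32% fell at 8 dpf. At 5 dpf 12.9% of all tested genes were higher and 11.7% lower in every Mut pool, and at 8 dpf 15.3% and 17.3%. *gins4*, a subunit of the GINS complex that activates the helicase, had values of 93, 92 and 93 for WT against 120, 155 and 135 for Mut at 5 dpf (log2 fold change 0.55, SE 0.13, adjusted p = 0.040). At 8 dpf the fall was largest in *mcm10*, an activator of the helicase, at 135, 144 and 145 for WT against 78, 75 and 75 for Mut (-0.89, SE 0.15, adjusted p = 0.020). *gins3* fell by 0.86 (SE 0.18, adjusted p = 0.041) and *cdc45*, the partner of GINS in the active helicase, by 0.81 (SE 0.15, adjusted p = 0.027) on the log2 scale. All 22 genes of the list were lower in Mut on average at 8 dpf, 20 of them in every Mut pool.

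Fork genes copy and repackage the DNA. Of 31 tested, 3 rose at 5 dpf and 10 fell at 8 dpf, with medians of 0.12 and -0.33. The 3 that rose at 5 dpf were *rfc4* of the clamp loader (log2 fold change 0.45, SE 0.11, adjusted p = 0.047), *pola2* of the polymerase alpha complex (0.43, SE 0.10, adjusted p = 0.031) and *chaf1a* of the chromatin assembly factor that binds PCNA (0.40, SE 0.07, adjusted p = 0.011). The largest falls at 8 dpf were those of *tipin*, which protects stalled forks (-0.76, SE 0.16, adjusted p = 0.042), *chtf18*, of an alternative clamp loader (-0.70, SE 0.12, adjusted p = 0.023), and *chaf1b* (-0.62, SE 0.10, adjusted p = 0.017). *pola2* passed in opposite directions at the 2 ages, with values of 239, 247 and 233 for WT against 303, 360 and 309 for Mut at 5 dpf and 409, 490 and 479 against 347, 309 and 309 at 8 dpf.

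Deoxynucleotide supply genes make the building blocks of DNA. Of 6 tested, 5 fell at 8 dpf and 0 passed at 5 dpf (limma, 1 at an unadjusted p under 0.05), with medians of -0.72 and 0.28. *tk1*, thymidine kinase, had values of 457, 575 and 562 for WT against 294, 195 and 220 for Mut at 8 dpf (log2 fold change -1.18, SE 0.17, adjusted p = 0.015). *rrm1* and *rrm2*, the large and small subunit genes of ribonucleotide reductase, were at -0.83 (SE 0.09, adjusted p = 0.0094) and -1.06 (SE 0.24, adjusted p = 0.04999). *rrm2* varied widely within the groups, with 290, 175 and 56 in the WT pools of 5 dpf and 351, 739 and 591 in the Mut pools of 8 dpf.

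Condensin and cohesin, the latter of which holds sister chromatids together, share a list and differed in direction at 5 dpf and in size at 8 dpf. Of 11 condensin and cohesin genes tested, 4 fell at 8 dpf and 0 passed at 5 dpf, also at an unadjusted p under 0.05 (limma), with medians of -0.45 and 0.07. *smc2* and *smc4*, the paired motor subunits of condensin, were at -0.78 (SE 0.13, adjusted p = 0.020) and -0.63 (SE 0.10, adjusted p = 0.019) at 8 dpf, against 0.06 (SE 0.08) and 0.08 (SE 0.10) at 5 dpf. *ncaph2*, of the second condensin complex, fell by 0.61 on the log2 scale (SE 0.12, adjusted p = 0.033). All 7 condensin genes tested beside *ncapd2* had values lower in every Mut pool at 8 dpf, with log2 fold changes of -0.78 to -0.43, and at 5 dpf they were at 0.06 to 0.22, with *ncapg2* (0.22, SE 0.10) and *ncaph* (0.14, SE 0.09) higher in every Mut pool. The 4 cohesin genes were at -0.16 to -0.10 at 5 dpf, with *smc3*, *rad21a* and *stag2a* lower in every Mut pool. At 8 dpf the cohesin genes were at -0.25 to 0.09. Of these, *smc3* (-0.14, SE 0.06), *rad21a* (-0.19, SE 0.08) and *stag1b* (-0.25, SE 0.08) were lower in every Mut pool, as the condensin genes were. Only *stag2a* (0.09, SE 0.07) was higher in every Mut pool at 8 dpf. None of the 4 cohesin genes passed at either age, and this split of the list was made after its values were seen.

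Of 22 regulators of G1 and S phase, 6 fell at 8 dpf and 0 passed at 5 dpf (limma, 4 higher and 0 lower at an unadjusted p under 0.05), with medians of -0.23 and 0.06. *ccne2*, a cyclin E gene that drives entry into S phase, had values of 516, 560 and 625 for WT against 274, 282 and 241 for Mut at 8 dpf (log2 fold change -1.09, SE 0.11, adjusted p = 0.0094). The transcription factor gene *e2f2* was at -1.01 (SE 0.15, adjusted p = 0.015), and *slbp*, whose product binds histone mRNAs made in S phase, at -0.96 (SE 0.08, adjusted p = 0.0071). The 3 genes that maintain DNA methylation behind the fork all fell at 8 dpf, with *hells* at -0.58 (SE 0.08, adjusted p = 0.014), *dnmt1* at -0.41 (SE 0.07, adjusted p = 0.020) and *uhrf1* at -0.38 (SE 0.08, adjusted p = 0.045).

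Mitosis genes were on balance not higher in Mut at 5 dpf, with 15 of 33 higher, 18 lower and a median of -0.06. The 1 gene of this list that passed at 5 dpf, the spindle checkpoint kinase gene *bub1bb*, fell, with values of 90, 91 and 93 for WT against 57, 57 and 67 for Mut (log2 fold change -0.59, SE 0.14, adjusted p = 0.040), and it passed in 0 of the fits that left out a pool, where its log2 fold change was -0.67 to -0.56. At 8 dpf 32 of the 33 were lower and 8 fell, with a median of -0.43. Among these were *ccna2*, a cyclin A gene, with 648, 729 and 813 for WT against 383, 402 and 334 for Mut (-0.97, SE 0.11, adjusted p = 0.009996), the checkpoint gene *mad2l1* (-0.93, SE 0.15, adjusted p = 0.019) and the chromosome kinesin gene *kif4* (-0.81, SE 0.12, adjusted p = 0.015).

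The difference between the ages was tested for the list genes, as the log2 fold change at 8 dpf minus that at 5 dpf. It passed in the downward direction for 63 of the 128 genes, where 6.15% of all genes did, and in the upward direction for 0 (2 at an unadjusted p under 0.05 from the limma fits, with 91 in the downward direction), where 1.94% did. The median difference was -0.54 over the 128 genes. By list, 13 of 22 licensing genes, 18 of 31 fork genes, 6 of 6 deoxynucleotide genes, 6 of 11 condensin and cohesin genes, 9 of 22 G1 and S regulators, 8 of 33 mitosis genes and 3 of 3 DNA methylation genes passed. The combination of a higher mean at 5 dpf and a lower mean at 8 dpf was met by 88 of the 128 genes, or 68.8%, against 22.9% of all genes.

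Genes that restrain the cycle were read beside them, in a list of inhibitors and stress-response genes. Of 15 tested, 3 rose in Mut at 5 dpf (limma), or 20% against 3.82% of all tested genes. At 8 dpf 0 passed (limma, 2 higher and 0 lower at an unadjusted p under 0.05), where 1.34% of all tested genes rose and 3.32% fell. At 5 dpf 6 of the 15 were higher and 9 lower on average, with a median log2 fold change of -0.04. At that age 3, or 20%, were lower in every Mut pool, where 11.7% of all tested genes were. These were the kinase inhibitor genes *cdkn1ca* (-0.19, SE 0.10) and *cdkn1cb* (-0.30, SE 0.17) and the antiproliferative gene *btg1* (-0.18, SE 0.06). *sesn2*, which encodes the stress protein Sestrin 2, had values of 84, 94 and 81 for WT against 208, 245 and 231 for Mut at 5 dpf (log2 fold change 1.39, SE 0.12, adjusted p = 0.00017). *cdkn1a*, which encodes the inhibitor p21 that binds cyclin-dependent kinases and PCNA, had 186, 174 and 193 for WT against 263, 363 and 270 for Mut (0.68, SE 0.13, adjusted p = 0.015). *ccng1*, a cyclin G gene, was at 0.65 (SE 0.10, adjusted p = 0.0052). Without Mut pool 2 the adjusted p of *cdkn1a* was 0.053, while *sesn2* and *ccng1* passed in every fit that left out a pool. At 5 dpf the transcripts of *cdkn1a* and of *pcna* were thus both higher in every Mut pool. At 8 dpf *cdkn1a* had 246, 270 and 260 for WT against 255, 199 and 225 for Mut, and its groups overlapped. The values of *sesn2* at that age were 275, 228 and 293 for WT against 378, 379 and 326 for Mut (log2 fold change 0.45, SE 0.13, adjusted p = 0.094). Those of *ccng1* were 11890, 9871 and 11674 for WT against 14110, 13070 and 12701 for Mut (0.26, SE 0.10, adjusted p = 0.18). Both were thus higher in every Mut pool at 8 dpf too, without passing the adjusted threshold. These 2 made up 13.3% of the list, below the 15.3% of all tested genes that were higher in every Mut pool at 8 dpf.

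Markers of cell types that divide in larvae were read beside these genes. Of the 14 matched markers of retinal and neural progenitors, *fabp7a* and *neurod1* fell at both ages and *rx2* at 8 dpf, while 1 rose at both ages. The list had a median log2 fold change of -0.19 at 5 dpf and -0.09 at 8 dpf. Its summed values were 12952 to 13885 in Mut against 13999 to 15858 in WT at 5 dpf, and 25212 to 27317 against 29498 to 32231 at 8 dpf. Without *fabp7a* and *neurod1*, an alternative chosen after the values were seen, the other 12 markers were summed at 7291 to 7640 in Mut against 6659 to 8258 in WT at 5 dpf, and at 10620 to 12048 against 10575 to 10812 at 8 dpf. The lower sums were thus those of these 2 genes, and *sox2* (-0.03) and *sox19a* (-0.04) differed little in log2 fold change at 8 dpf. The rise at both ages was that of *nes*, the intermediate filament gene nestin, with a log2 fold change of 2.29 (adjusted p = 6.8e-05) at 5 dpf and 1.51 (adjusted p = 0.024) at 8 dpf. Markers of thymus and lymphocytes were summed at 355 to 415 in Mut against 473 to 491 in WT at 5 dpf, with 1 of 9 tested falling and 1 of 10 at 0 in all libraries, and at 150 to 218 against 209 to 292 at 8 dpf, with 0 of 7 passing. Those of haematopoietic progenitors were at 1113 to 1280 against 1243 to 1308 at 5 dpf and at 1524 to 1566 against 1582 to 1669 at 8 dpf, where 1 of 6 fell. Their median log2 fold change was -0.12 at 5 dpf and 0.005 at 8 dpf. The fall was that of *myb*, with 284, 248 and 266 for WT against 172, 173 and 173 for Mut (-0.62, SE 0.11). Of the other markers at 8 dpf, *gata2b* (0.78, SE 0.36), *lmo2* (0.30, SE 0.14) and *gfi1aa* (0.05, SE 0.25) were higher on average, and *spi1b* (-0.21, SE 0.19) and *tal1* (-0.04, SE 0.07) lower. None of these passed the adjusted threshold. *gata2b* was read at only 18, 8 and 9 for WT against 17, 19 and 23 for Mut, with overlapping groups, and *gfi1aa* at only 19 to 22. The part of these cell types in the values of the 8 genes was not tested.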

How the data were processed

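Stranded mRNA libraries of 12 pools were sequenced by the authors, who trimmed the reads with Trimmomatic 0.33, aligned them with STAR 2.4.0a to GRCz10 (Ensembl release 87) and counted them per gene with featureCounts 1.4.5-p1, leaving out reads with several positions. The deposited values are scores, normalized by the authors for library size and rounded to whole numbers. At 8 dpf a batch effect had also been removed from them by the authors with removeBatchEffect. They are therefore not counts, the read depth behind each value is unknown here, and no counting interval is given. The labels name the libraries by genotype, age and replicate number, and since nothing beyond separate pools of siblings is stated, p-values rest on the spread between pools. For each gene eBayes draws this spread towards a trend over all genes. At 8 dpf it is the spread left after the batch removal.

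Per age, genes whose mean over the 6 libraries reached 5 (22521 at 5 dpf, 20963 at 8 dpf) entered a linear model of log2(value + 1) in limma 3.58.1 (R 4.3.3; lmFit, eBayes with trend, two-sided), with batch as a term at 8 dpf. That Mut pool 3 and WT pool 3 are the smaller batch was read from the values, in which the mean of this pair differed from the mean of the other pools by a median of 0.0056 (log2), against 0.058 for the next pair. A gene passed at a Benjamini-Hochberg adjusted p under 0.05 over all genes of the age. The difference between ages was taken from both fits (Satterthwaite degrees of freedom, adjusted over 20598 genes). With 3 against 3 pools an exact permutation test cannot go below p = 0.1, so no single value was tested that way. The procedure was tested on simulated data.

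The 8 genes and the lists were chosen with earlier results of these data known. Of 168 list symbols, 145 were matched to an identifier through the study's gene tables or a reference table. Named were the 8 genes, *mia40a*, up to 3 genes per list and age with the largest change among those that passed, and the 10 genes most correlated with the 8. The marker *nes* and the single markers of haematopoietic progenitors were named after their values were seen. One result withheld for evaluation is not reported here. Alternatives were other pseudocounts, filters, scalings and thresholds, eBayes without trend, the replicate number as a block, leaving out each pool, no batch term, and the larger batch alone. The counts of matched markers take each identifier once. Gene sequences were not used here. Figures were drawn with matplotlib 3.10.9.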

Additional observations from a re-analysis of the deposited data

Results flagged for a closer look

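For 26 of the genes named from the lists, the difference between the genotypes itself differed between 5 and 8 dpf (log2 fold change at 8 dpf minus that at 5 dpf, test from both limma fits, adjusted p under 0.05). For all 26 it was lower at 8 dpf. All 26 had been named for a rise at 5 dpf or a fall at 8 dpf, and the same values enter this difference. The choice thus favoured the shared direction, which is no result of its own. The ages differ in feeding, normalization and batch removal as well, and the part of these in the differences was not tested.

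Among licensing genes the difference was -1.34 for *mcm10*, -0.89 for *gins4*, -0.84 for *cdc45* and -0.78 for *gins3*. Among fork genes it was -0.94 for *pola2*, -0.82 for *chaf1b*, -0.79 for *chtf18*, -0.67 for *chaf1a* and -0.65 for *rfc4*. Deoxynucleotide genes had -1.82 (SE 0.52) for *rrm2*, -1.12 for *tk1* and -0.92 for *rrm1*. Among regulators it was -1.13 for *ccne2*, -0.98 for *slbp* and -0.92 for *e2f2*, and among condensin genes -0.84 for *smc2*, -0.73 for *ncaph2* and -0.71 for *smc4*. The mitosis genes had -1.33 for *mad2l1*, -0.97 for *ccna2* and -0.86 for *kif4*. Maintenance of DNA methylation had -0.74 for *hells*, -0.58 for *uhrf1* and -0.49 for *dnmt1*. In the list of inhibitors and stress-response genes it was -0.94 for *sesn2* and -0.88 for *cdkn1a*, 2 genes whose values had been higher in Mut at 5 dpf and did not pass at 8 dpf.

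With each of the 12 pools left out in turn, 22 of the 26 differences passed in every fit. The fits without WT pool 3 and without Mut pool 3 of 8 dpf gave the same differences, as both rest on the larger batch of that age. That of *gins3* passed in 1 of the 12, the fit without Mut pool 1 of 8 dpf (-0.94 to -0.64 over the fits). That of *rrm2* passed in 5 of the 12 and not without WT pool 2 or any Mut pool of 5 dpf or without WT pool 1, WT pool 2 or Mut pool 1 of 8 dpf (-1.97 to -1.48), and without WT pool 3 of 5 dpf, which was at 56 against 290 and 175 in the other WT pools, it was -1.16 (SE 0.32, adjusted p = 0.033) and the log2 fold change at 5 dpf was 0.10. That of *ncaph2* did not pass without Mut pool 2 or 3 of 5 dpf (-0.63 and -0.71) or without WT pool 3, Mut pool 2 or Mut pool 3 of 8 dpf (-0.72, -0.66 and -0.72), and that of *cdc45* did not pass without WT pool 3, Mut pool 2 or Mut pool 3 of 8 dpf (-0.71, -0.76 and -0.71).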

How the results depend on the processing

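The median log2 fold change of the 8 genes kept its sign in every alternative run, with 0.17 to 0.28 at 5 dpf and -0.43 to -0.40 at 8 dpf over the fits that left out a pool. With libraries scaled to the same total it was 0.21 and -0.46. The counts of list genes that passed were less stable. The 4 rises in the 7 machinery lists at 5 dpf became 0 without a filter, without the mean-variance trend, with the replicate block, at a log2 fold change of at least 0.9 and at an adjusted p under 0.01, and 1 with symbols from the study's own tables alone, and 0 to 3 when a pool was left out. The 1 fall at 5 dpf became 0 without a filter, with the replicate block, at either stricter threshold, with those symbols alone and in every fit that left out a pool (0 to 0). The 43 falls at 8 dpf became 0 without the trend, 26 with the replicate block, 71 without a batch term, 4 in the larger batch alone, 8 at a log2 fold change of at least 0.9, 4 at an adjusted p under 0.01, and 2 to 40 when a pool was left out. The 63 differences between ages became 38 at an adjusted p under 0.01, 14 at a log2 difference of at least 0.9, and 45 to 68 when a pool was left out. The 3 rises of inhibitor and stress-response genes at 5 dpf became 1 without a filter, without the trend and at a log2 fold change of at least 0.9, and 2 to 3 when a pool was left out. Pools of the same number deviated from their group means with correlations of -0.28 to -0.10 at 5 dpf. At 8 dpf these were -0.28, -0.18 and -0.999. The last was forced by the batch removal, as Mut pool 3 and WT pool 3 of that age shared a batch. After this removal the correlations of 8 dpf cannot show whether pools of the same number were handled together. With the replicate block 2 of 8 named list genes passed at 5 dpf and 15 of 21 at 8 dpf, and 52 differences between ages and 2 of the inhibitor and stress-response rises passed. No named list gene changed sign in the alternatives run. Levels of the 8 genes per length could not be computed, as gene lengths were not used here, and that alternative was not run.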
